A study of Mus musculus with 10 samples.

Results

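The 5 transcription factor genes Bcl6b, Lhx1, T, Eomes and Pou3f1, which serve as readouts of stem cell self-renewal in the male germline, were followed on the 10 microarrays of a study of fibroblast growth factor 5 (FGF5) in mouse spermatogonia. The members were the non-control probes whose gene name on the array equals one of these 5 symbols, which gave 7 probes of 55681, since Lhx1 and Eomes have 2 probes each and the other genes 1. The array carries 31982 gene names. Each of the 7 probes is printed once, and none of its spots was left out on any array.

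The arrays hold 2 experiments. Cultured spermatogonia, called germline stem (GS) cells, were kept for 3 days without FGF2 and glial cell line-derived neurotrophic factor (GDNF), and then received 100 ng/mL FGF5 or none for 24 hr, with 2 samples in each group. Spermatogonia that carry the GDNF co-receptor GFRα1 were sorted from adult testes of 2.5 months of age of wild-type (WT) and Fgf5-/- mice, with 3 samples in each group. Mice of both genotypes carried the Gfrα1-GFP reporter, and the sort was on its green fluorescence. The labels give C57BL/6 as the strain of all samples and wild type as the genotype of the GS cells, whereas the methods derive the GS cells from a cross of C57BL/6 and ICR mice. The sources used here do not say whether the samples within a group came from separate cultures, lines or mice, so the p-values measure the spread between these samples, which may be technical.

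Self-renewal of mouse spermatogonial stem cells depends on GDNF, which binds GFRα1 and signals through the RET receptor, and on FGFs, which act through receptor tyrosine kinases and the ERK pathway. Bcl6b encodes a BTB and zinc finger repressor and Lhx1 a LIM homeodomain factor, and both are known as genes that GDNF induces in cultured spermatogonia. T, also called Brachyury, and Eomes encode T-box factors best known from the primitive streak and early mesoderm of the embryo. Pou3f1, also called Oct6, encodes a POU domain factor known from Schwann cells and from cultured spermatogonia.

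The probes are strands of 60 bases, placed here on mm9 as the array files place them; exon annotation of that build was not used here. The Bcl6b probe lies on the minus strand at chr11:70037864-70037923. The brighter Lhx1 probe lies on the minus strand at chr11:84331888-84331947. The dimmer Lhx1 probe spans chr11:84335442-84335594 on the same strand, which is 153 bases of genome and 93 more than the probe holds, so its bases are not contiguous in the genome. It is shown because it is the only member probe of this kind and gave smaller differences than its partner.
Lhx1 dimmer probe: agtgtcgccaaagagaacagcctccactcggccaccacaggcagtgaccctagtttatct
The T probe lies on the plus strand at chr17:8635302-8635361. The Eomes probes lie on the plus strand at chr9:118394425-118394484, the brighter, and chr9:118395189-118395248, the dimmer. The Pou3f1 probe lies on the plus strand at chr4:124337692-124337751.

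Lhx1 and T were higher with FGF5 in culture, while the brighter Eomes probe overlapped between the culture groups. Bcl6b, also higher with FGF5, and Pou3f1, which also overlapped, had no entry in the promoter set used here. For Lhx1, T and Eomes the 250 bases before the RefSeq start (GRCm38.p6) are therefore shown. They are chr11:84525535-84525784 on the minus strand for Lhx1, chr17:8434173-8434422 on the plus strand for T and chr9:118477939-118478188 on the plus strand for Eomes, each written 5′ to 3′ on the strand of the gene. Capitals mark CCAAT and TATANAA, searched on both strands, so that ATTGG is CCAAT on the other strand.
Lhx1: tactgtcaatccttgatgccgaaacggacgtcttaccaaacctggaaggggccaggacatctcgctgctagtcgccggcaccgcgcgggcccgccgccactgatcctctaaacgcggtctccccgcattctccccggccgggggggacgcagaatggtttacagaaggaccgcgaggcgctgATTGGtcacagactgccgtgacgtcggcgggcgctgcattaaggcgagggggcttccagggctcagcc
T: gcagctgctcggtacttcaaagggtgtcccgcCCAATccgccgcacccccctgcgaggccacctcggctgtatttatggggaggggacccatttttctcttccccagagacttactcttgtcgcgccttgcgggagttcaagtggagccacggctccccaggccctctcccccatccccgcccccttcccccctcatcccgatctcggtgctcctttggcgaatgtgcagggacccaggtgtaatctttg
Eomes: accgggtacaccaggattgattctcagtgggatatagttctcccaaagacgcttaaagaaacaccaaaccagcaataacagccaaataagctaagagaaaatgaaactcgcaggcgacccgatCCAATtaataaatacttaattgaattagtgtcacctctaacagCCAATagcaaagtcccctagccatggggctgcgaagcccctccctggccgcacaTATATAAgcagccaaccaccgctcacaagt
CCAAT occurs once in the Lhx1 and T windows and at 2 places in the Eomes window, and in 33.8% of the 32851 promoter windows of this length. TATANAA occurs in the Eomes window alone of these 3, starting 30 bases before the gene's start, and in 10.4% of all windows. CCGGAA, a longer site around the GGAA core bound by ETS factors such as ETV4 and ETV5, occurs in none of the 3 windows. TCACACCT, a T-box element, is also absent from them. Of all windows, 12% hold CCGGAA and 1.12% hold TCACACCT. The GGAA core alone was not searched for. No match overlaps another. The GC content is 64.8% for Lhx1, 62.8% for T and 46.4% for Eomes, with a median of 52.4% over all windows. These matches describe the letters and say nothing of binding.

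Levels are given as the log2 of the background-subtracted signal minus that of the 75th percentile of the array, so a level of 0 equals the 75th percentile, and they are compared across samples of 1 probe and never between probes. A probe counts as detected when the scanner software marked it well above background. Between 55.3% and 65.9% of all probes were detected per array. Of 10 markers of undifferentiated spermatogonia, among them Gfra1, Ret and Zbtb16, all 10 were detected on every array, as were 5 of 5 germ cell markers such as Ddx4 and Dazl. Fgf5 itself cannot check the genotype labels, because its probe was not detected on any WT array. It was detected on 1 of the 3 arrays labelled Fgf5-/-, replicate 1, which is also the array with the highest share of detected probes.

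**Figure D1:**
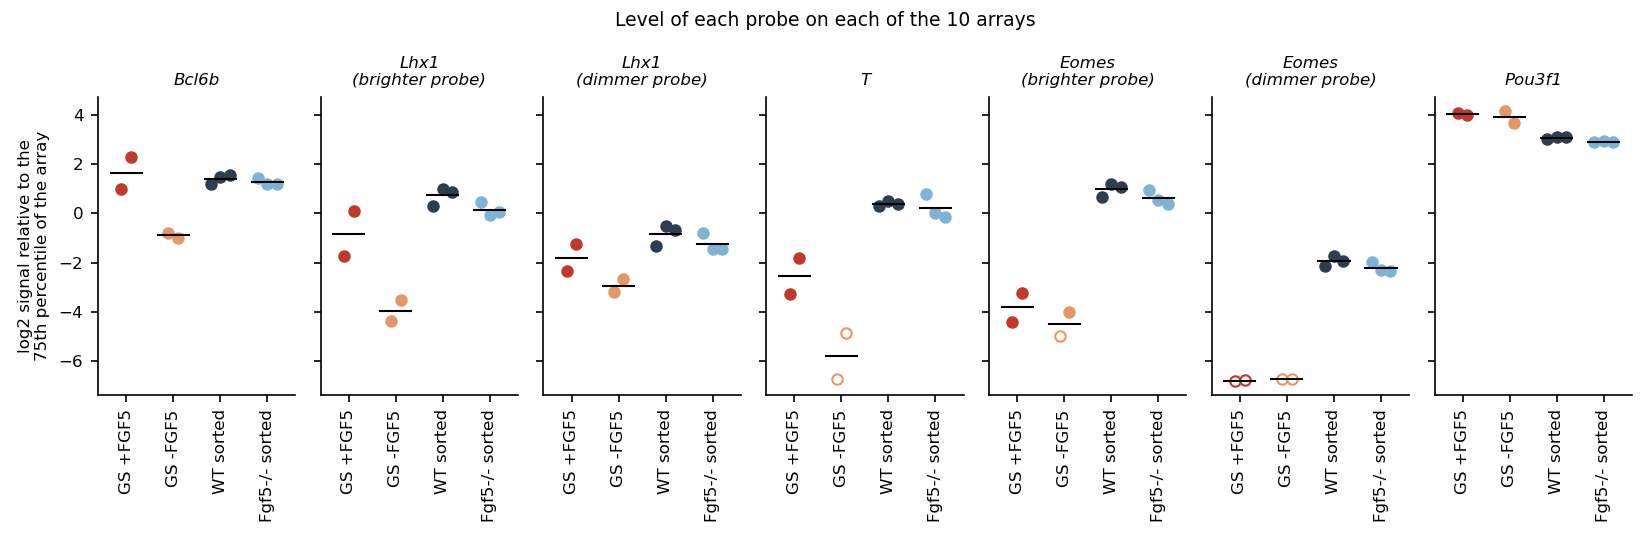
Level of each of the 7 probes on each of the 10 arrays, as log2 signal after subtraction of the array's 75th percentile; filled points are well above background, open points are not, and lines are group means. Bcl6b, both Lhx1 probes and T lie higher with FGF5 than without it, both Eomes probes lie far lower in culture than in sorted cells, and Pou3f1 lies between 2.87 and 4.15 on every array.

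FGF5 was added to GS cells to ask which genes it changes in the absence of FGF2 and GDNF. Bcl6b was 5.74-fold higher with FGF5, and Lhx1 was 8.66-fold higher on its brighter probe and 2.19-fold on its dimmer one. T was detected on both arrays with FGF5 and on neither without it. The brighter Eomes probe and Pou3f1 overlapped between the groups, and the dimmer Eomes probe was detected on no culture array. No member passed the adjustment over all tested probes, and no probe of the array did.

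The Bcl6b level was 0.98 and 2.28 on the arrays with FGF5, and -0.78 and -1.01 on those without. The groups did not overlap, and the sample numbered 2 was the higher of the samples with FGF5. The log2 fold change was 2.52 (SE 0.46, 95% interval 1.31 to 3.73, limma, adjusted p = 0.99998). With FGF5 the 2 arrays lay on either side of the sorted WT arrays, and without FGF5 both lay below them.

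The brighter Lhx1 probe read -1.74 and 0.09 with FGF5, and -4.37 and -3.51 without it. All 4 arrays were well above background and the groups did not overlap. The log2 fold change was 3.12 (SE 0.68, 95% interval 1.32 to 4.91, limma, adjusted p = 0.99998). The probe with the gap in its genomic span read -2.35 and -1.25 with FGF5, and -3.18 and -2.68 without. It differed in the same direction by 1.13 on the log2 scale (SE 0.43, 95% interval 0.0036 to 2.25, limma, adjusted p = 0.99998), or 2.19-fold. The probes of Lhx1 thus gave the same direction and different sizes.

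T read -3.26 and -1.79 with FGF5 and was well above background on both arrays. Without FGF5 it read -6.73 and -4.84, neither well above background, so only a bound on the fold can be given. T was at least 4.98-fold higher with FGF5. This bound sets the mean level with FGF5 against a signal on each array without it. That signal was the lowest of any probe well above background, or the probe's own signal where that was higher. The fitted difference, and not the bound, had an adjusted p of 0.99998 (limma). The bound was 8.28-fold without the sample numbered 1 with FGF5 and 2.99-fold without the sample numbered 2 of that group. Under the normexp background correction the fitted log2 difference was 1.07, which is smaller than the bound. The bound thus holds only for the background subtraction used here. On the scanner's linear scale, the signal of T was 61.8 and 185 units with FGF5, and 6.14 and 20.0 units without.

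The brighter Eomes probe read -4.39 and -3.24 with FGF5, and -4.97 and -3.99 without. It was well above background on both arrays with FGF5 and on 1 of 2 without, and the groups overlapped. The log2 fold change of 0.67 had an interval from -0.71 to 2.04. The dimmer Eomes probe was well above background on none of the 4 culture arrays, with levels between -6.80 and -6.70, and was not tested there.

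Pou3f1 read 4.08 and 3.98 with FGF5, and 4.15 and 3.65 without. The groups overlapped, the log2 fold change was 0.13 and its 95% interval from -0.47 to 0.73 leaves room for a change of either sign. Without sample 2 of the cells without FGF5 the value turned to -0.12.

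Of the 4 member probes detected on every culture array, 3 had every array with FGF5 above every array without it, against 8.17% of the 34608 probes tested. These were Bcl6b and both Lhx1 probes, so 2 of the 3 belong to 1 gene. The shares given here are over all probes tested, including those that entered through 1 group only. All 3 were at least 2-fold higher, against 0.867% of the probes tested, and 0 were at least 2-fold lower, against 0.439%. The dimmer Lhx1 probe was under 2-fold, at 0.58 on the log2 scale without the sample numbered 2 with FGF5, at 0.88 without the sample numbered 1 of the cells without FGF5 and at 0.70 under the normexp background correction, which leaves 2 probes. The same 3 had an unadjusted p under 0.05, which 882 probes or 2.55% reached, and 0 probes passed the adjusted threshold of 0.05. T and the brighter Eomes probe entered the test only through the group with FGF5 and are not counted here, and the dimmer Eomes probe was not tested. In Bcl6b, both Lhx1 probes and T the sample numbered 2 with FGF5 was the higher one. Leaving out the sample numbered 1 raised the log2 fold change of Bcl6b to 3.17 and leaving out the sample numbered 2 brought it to 1.87. The corresponding values of the brighter Lhx1 probe were 4.03 and 2.20. The summed linear level of 10 fibroblast and peritubular markers, 9 of which were detected on every culture array, was 14.3 and 6.01 times the 75th percentile signal in the samples numbered 1 and 2 with FGF5, and 16.1 and 7.35 in those without. Col1a1, the collagen I gene, made up most of this sum, with 11.2 and 2.96 with FGF5 and 13.1 and 4.06 without. The sum of the other 9 was 3.12 and 3.04 with FGF5, and 3.02 and 3.29 without. The part of Col1a1 in the difference between the samples with FGF5 was not tested, and Lum, one of the markers, was detected on no culture array.

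Loss of Fgf5 in the mouse was compared in sorted GFRα1+ cells to ask whether the cells that remain differ in expression. All 7 member probes were detected on all 6 arrays. Each had a lower mean in Fgf5-/- cells, by 0.15 to 0.58 on the log2 scale, and none passed the adjustment. Over all tested probes the median difference was -0.03, and the share below 0 was not counted. The genotypes overlapped in 6 of the 7 probes.

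Bcl6b read 1.17, 1.49 and 1.56 in WT cells, and 1.43, 1.18 and 1.19 in Fgf5-/- cells. The ranges overlapped, and the log2 fold change was -0.15 (SE 0.15, 95% interval -0.50 to 0.21, limma, adjusted p = 0.804).

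The brighter Lhx1 probe read 0.32, 1.0 and 0.88 in WT cells, and 0.47, -0.06 and 0.04 in Fgf5-/- cells. It had the largest difference of the 7, -0.58 (SE 0.23, 95% interval -1.13 to -0.03, limma, adjusted p = 0.729), although Fgf5-/- replicate 1 lay above WT replicate 1. The dimmer probe of Lhx1 read -1.34, -0.52 and -0.67 in WT cells, and -0.78, -1.44 and -1.46 in Fgf5-/- cells, with a difference of -0.38 (SE 0.28). On both probes WT replicate 1 was the lowest of its group and Fgf5-/- replicate 1 the highest of its group.

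T read 0.29, 0.51 and 0.36 in WT cells, and 0.78, 0.00 and -0.15 in Fgf5-/- cells. Fgf5-/- replicate 1 was the highest of the 6 arrays and the other Fgf5-/- arrays were the lowest. The log2 fold change was -0.18 (SE 0.25, 95% interval -0.78 to 0.42, limma, adjusted p = 0.857), and its sign turned to 0.0014 without Fgf5-/- replicate 3.

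The brighter Eomes probe read 0.64, 1.20 and 1.08 in WT cells, and 0.93, 0.54 and 0.39 in Fgf5-/- cells, with a difference of -0.35 (SE 0.21). The dimmer Eomes probe read -2.14, -1.72 and -1.92 in WT cells, and -1.97, -2.31 and -2.34 in Fgf5-/- cells, with a difference of -0.28 (SE 0.16). Both had an adjusted p of 0.754 (limma), and the probes agreed in sign and in the order of the Fgf5-/- arrays.

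Pou3f1 read 3.01, 3.1 and 3.1 in WT cells, and 2.87, 2.92 and 2.91 in Fgf5-/- cells. It was the only member whose arrays did not overlap between the genotypes, with a difference of -0.17 (SE 0.09, 95% interval -0.40 to 0.06, limma, adjusted p = 0.754). Of the 30283 probes tested, 9.18% had every Fgf5-/- array below every WT array, so 1 of 7 is near the background.

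An unadjusted p under 0.05 was reached by 1 member, the brighter Lhx1 probe, and by 6.77% of the probes tested, while 0 members and 0 probes passed the adjusted threshold. Without Fgf5-/- replicate 1, the differences were -0.74 and -0.61 for the Lhx1 probes, -0.46 for T, -0.51 and -0.40 for the Eomes probes, -0.23 for Bcl6b and -0.16 for Pou3f1, and 0 of the 7 passed (limma, adjusted p between 0.534 and 0.661). That array was the highest of its group for every member but Pou3f1, where it was the lowest. The summed level of the 5 spermatid markers, of which 4 were detected on every sorted array and 1 on none, was 4.52 on that array, 8.45 and 16 on the other Fgf5-/- arrays and between 6.27 and 8.43 on the WT arrays. Its part in the member levels was not tested.

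**Figure D2:**
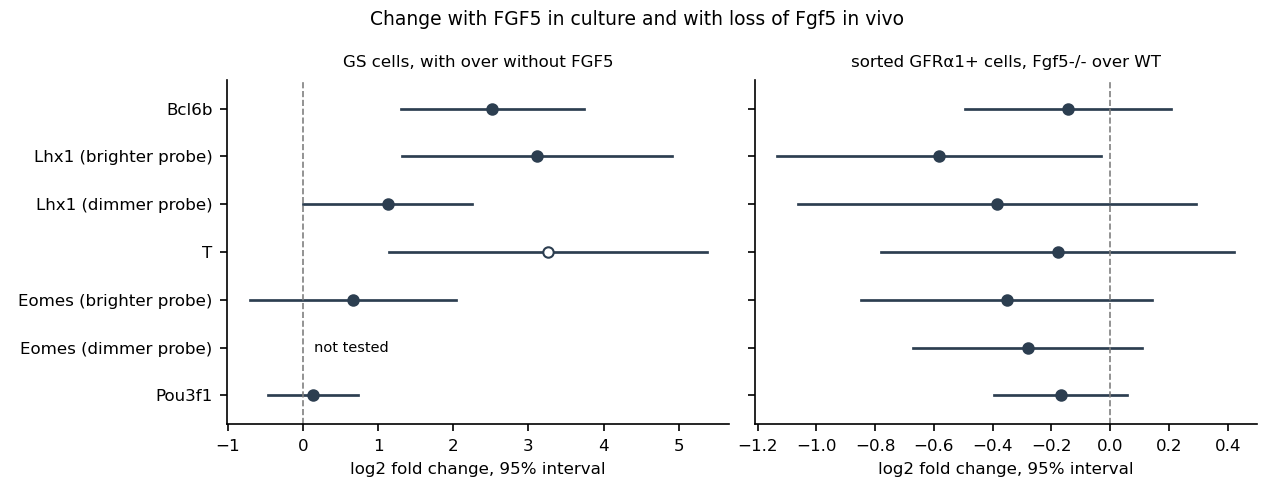
Log2 fold change of each probe with its 95% interval, for GS cells with over without FGF5 (left) and sorted Fgf5-/- over WT cells (right), on axes of different scale; the open point marks T, which was not well above background without FGF5 and is drawn at its fitted value, which is not a measured fold; the bound of 4.98-fold is not drawn. In culture the intervals of Bcl6b, both Lhx1 probes and T lie above 0 before adjustment, and in sorted cells all 7 estimates lie between -0.58 and -0.15.

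The level in culture was set against that of sorted WT GFRα1+ cells to place the members between the materials. Both T-box genes and the brighter Lhx1 probe were far lower in GS cells without FGF5 than in sorted cells. There the dimmer Lhx1 probe was 4.24-fold and Bcl6b 4.93-fold lower. With FGF5 the 2 Bcl6b arrays lay on either side of the WT arrays. Pou3f1 was higher in culture in both conditions. The culture arrays and the sorted arrays lie on different slides, and all GS cells had spent 3 days without FGF2 and GDNF. Slide, strain, material and this withdrawal therefore cannot be told apart, and both comparisons share the 3 WT arrays. Over all tested probes the median difference from WT cells was 0.21 with FGF5 and 0.26 without, and lay between 0.11 and 0.42 under the other scalings, so the changes below are to be read against it.

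Of the 6 member probes detected on every array of both groups, 4 passed the adjusted threshold in cells with FGF5, against 52.1% of the 34760 probes tested. Without FGF5 there were 4 such probes and all 4 passed, against 55.4% of 35048. Called lower were 3 of the 6 with FGF5 and 3 of the 4 without, where 20.5% and 21% of the probes tested were called lower. The 1 called higher in each was Pou3f1, where 31.6% and 34.3% of the probes tested were called higher. These shares are over all probes tested, including those that entered through 1 group only. The dimmer Eomes probe in both comparisons, and T and the brighter Eomes probe without FGF5, entered only through the WT group, were also called lower and are not in these counts.

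Some markers of other cells differed between culture and sorted cells too. The summed level of 5 markers of differentiating spermatogonia, all detected on every array, was between 18.5 and 21.8 times the 75th percentile signal in GS cells and between 71.5 and 88.6 in WT cells. Stra8, at 5.89 on the log2 scale in WT cells, made up most of the WT sum. It was called lower in culture, at -3.28 with FGF5 and -2.86 without, as was Kit, at -2.82 and -2.71. Sohlh2, Dmrtb1 and Rhox13 were called in neither comparison. Of the 5 spermatid markers, 3 were detected on every culture array and 4 on every WT array, and Acrv1 on no array. Their sum was between 0.839 and 1.03 in GS cells and between 6.27 and 8.43 in WT cells. The fibroblast and peritubular sum was between 4.83 and 5.41 in WT cells, against the 6.01 to 16.1 given above for culture. Of 6 macrophage markers, among which C1qa and Lyz2 were detected on no culture or WT array, the sum was between 3.8 and 4.66 in GS cells and between 1.6 and 2.08 in WT cells. The part of these cells in the member differences was not tested.

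The brighter Eomes probe was 27.6-fold lower in GS cells with FGF5 than in WT cells (log2 fold change -4.79, SE 0.40, limma, adjusted p = 7.5e-05). Without FGF5, where 1 of 2 arrays was well above background, the fitted value was 43.8-fold lower (log2 fold change -5.45, SE 0.40). There the probe entered the test only through the WT group, so no p-value is given. The dimmer probe was well above background on no culture array and on every sorted array. It entered both tests only through the WT group, so its p-values, which belong to fitted values at the background, are not given. The dimmer probe was at least 7.94-fold lower with FGF5 and at least 7.74-fold lower without. As each array was left out, these bounds lay between 7.39 and 8.54 with FGF5 and between 7.21 and 8.34 without. Under normexp the fitted log2 differences of this probe were -1.48 and -1.75, which are smaller in size than its bounds. Those of the brighter probe were -3.58 and -3.81. In bulk samples, fewer cells that express a gene and less of its RNA in each cell cannot be told apart.

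T was 7.55-fold lower in GS cells with FGF5 than in WT cells (log2 fold change -2.92, SE 0.59, limma, adjusted p = 0.0038). In GS cells without FGF5 it was at least 37.6-fold lower. The value with FGF5 rested on unequal samples and was -2.18 without the sample numbered 1 and -3.65 without the sample numbered 2. As each array was left out, the bound without FGF5 lay between 36.0 and 38.8-fold. Under normexp the fitted log2 difference was -3.41, which is smaller in size than the bound. Without FGF5, T was not well above background, and its fitted log2 fold change was -6.17. It became -5.23 without the sample numbered 1 and -7.12 without the sample numbered 2. In the comparison without FGF5, T entered the test only through the WT group, so no p-value is given for it.

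The brighter Lhx1 probe was 2.94-fold lower with FGF5 than in WT cells (log2 fold change -1.56, SE 0.50, limma, adjusted p = 0.030) and 25.5-fold lower without it (log2 fold change -4.67, SE 0.51, limma, adjusted p = 0.00020). The call with FGF5 was lost without the sample numbered 1, where the value was -0.64 (limma, adjusted p = 0.251), and without WT replicate 2 or 3 (limma, adjusted p = 0.076 and 0.075). Without the sample numbered 2 with FGF5 the value was -2.47. The dimmer probe gave -0.96 with FGF5 (SE 0.39, limma, adjusted p = 0.068) and -2.08 without (SE 0.39, limma, adjusted p = 0.0025). Its value with FGF5 passed without the sample numbered 2 of that group, at -1.51, and without WT replicate 1, at -1.20.

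Bcl6b with FGF5 differed from WT cells by 0.22 (SE 0.33, 95% interval -0.54 to 0.98, limma, adjusted p = 0.601), and the arrays overlapped. The sample numbered 2 with FGF5 lay above all WT arrays and the sample numbered 1 below them, so the sign turned with the sample left out, to 0.87 without the sample numbered 1 (limma, adjusted p = 0.022) and to -0.43 without the sample numbered 2 (limma, adjusted p = 0.154). Without FGF5 it was 2.30 lower on the log2 scale (SE 0.33, limma, adjusted p = 0.00074), below every WT array.

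Pou3f1 was 1.94-fold higher in GS cells with FGF5 than in WT cells (log2 fold change 0.96, SE 0.16, limma, adjusted p = 0.0016) and 1.78-fold higher without FGF5 (log2 fold change 0.83, SE 0.16, limma, adjusted p = 0.0029). Every culture array was above every sorted array. It was the only member higher in culture at both doses of FGF5, 0 and 100 ng/mL.

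**Figure D3:**
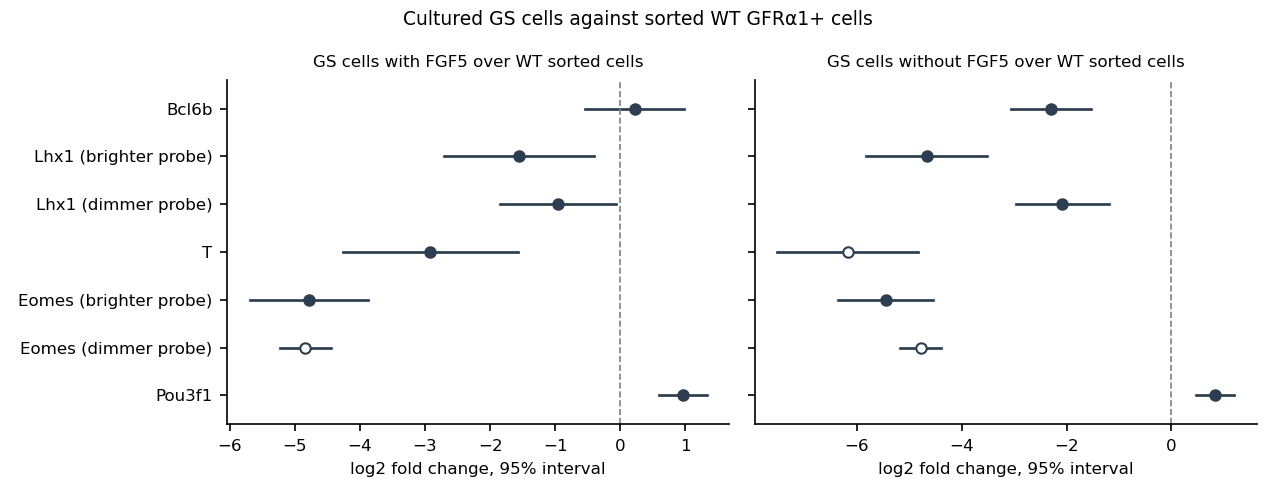
Log2 fold change of each probe with its 95% interval, for GS cells with FGF5 (left) and without FGF5 (right) over sorted WT GFRα1+ cells; open points mark probes well above background on no array of the culture group, drawn at fitted values that are not measured folds, and the bounds are not drawn. Eomes and T lie below 0 in both panels, Bcl6b lies at 0.22 with FGF5 and at -2.30 without, and Pou3f1 lies above 0 in both.

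The order of the group means differed between the members. For Bcl6b it was GS cells with FGF5, WT, Fgf5-/- and GS cells without FGF5, of which the first 3 overlapped. For Lhx1, T and Eomes it was WT, Fgf5-/-, GS cells with FGF5 and GS cells without FGF5 on the brightest probe, with the genotypes overlapping. The culture groups overlapped too for Eomes, and for Lhx1 the array of sample 2 with FGF5 lay within the range of the Fgf5-/- arrays. For Pou3f1 it was GS cells with FGF5, GS cells without FGF5, WT and Fgf5-/-, with the culture groups overlapping.

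Genes that GDNF is known to induce in cultured spermatogonia were taken as a list of 10. Of the 8 tested in culture, 5 were at least 2-fold higher with FGF5 and 0 at least 2-fold lower, and 0 passed the adjustment. Of all probes tested, 0.867% and 0.439% were so changed. The median log2 fold change was 1.66 against -0.03 over all tested probes. The authors reported Etv5, Ccnd2 and Id4 as raised by FGF5 in this comparison. The list was chosen with earlier results of these data known, so its count and median are no support. Etv5, an ETS factor needed for stem cell maintenance, was 3.93 higher on the log2 scale (SE 0.67) and its relative Etv4 3.24 higher (SE 0.56). The differences of Egr2, an early growth response factor, and Ccnd2, the D-type cyclin, were 2.92 (SE 0.61) and 2.0 (SE 0.59). Nanos2 and Mycn, with -0.22 (SE 0.17) and -0.26 (SE 0.20), had the opposite sign.

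In sorted cells, 9 of the 10 genes were tested and all 9 had a log2 fold change below 0 in Fgf5-/- cells, from -0.31 to -0.01, with 0 past the adjusted threshold. Their median was -0.13 against -0.03 over all tested probes. Etv5 had the largest difference of the list, -0.31 (SE 0.12). Against WT cells, 6 of the 9 were called lower and 1 higher in GS cells with FGF5, with a median of -1.46, and 8 lower and 1 higher in those without, with a median of -3.71, where 20.5% and 21% of all probes tested were called lower. Tspan8, a tetraspanin, was detected on every sorted array and on no culture array, as was the dimmer Eomes probe, and entered only through the WT group. Mycn was the one higher in culture in both comparisons.

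Of 14 further self-renewal genes, 13 were tested in culture, 3 were at least 2-fold higher with FGF5 and 0 lower, and the median log2 fold change was -0.14. The 3 were Gfra1 (1.55, SE 0.94), Ret (1.45, SE 0.42) and Plvap (1.17, SE 0.60), the first a GDNF co-receptor and the second its signalling receptor. Of all probes tested, 0.867% were at least 2-fold higher. Gfra1 and Ret are also among the genes that the authors reported as raised by FGF5 here, so the count is no support. Zbtb16, Foxo1, Lin28a and Sall4 lay between -0.23 and -0.02. In Fgf5-/- cells 13 were tested, 0 passed and the median was -0.14.

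The relatives of the members were read from 4 family lists. Of 15 T-box genes other than T and Eomes, 8 were tested in culture, 0 were at least 2-fold higher with FGF5, 1 was at least 2-fold lower (Tbx20, at -1.02, SE 1.18) and the median was -0.16. Tbx20 and Tbx21 entered this test only through the group without FGF5, so the 1 lower gene is no support. Tbx4 was detected on every sorted array and on no culture array, and Tbx3 and Tbx1 were called lower in culture than in WT cells, at -3.49 (SE 0.62) and -3.24 (SE 0.40) with FGF5. Tbx10 was called higher, at 1.19 (SE 0.16). Of the T-box genes tested against WT cells, 4 of 7 were called lower with FGF5 and 4 of 9 without, against 20.5% and 21% of all probes tested. Tbx4 entered these counts only through the WT group, and Tbx20 and Tbx21 entered the count without FGF5 only through the culture group.

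Of 11 LIM homeobox genes other than Lhx1, 10 were tested in culture and 1 was at least 2-fold higher with FGF5. This was Lhx2, at 1.92 (SE 0.61), whose difference in Fgf5-/- cells was -0.37 (SE 0.10). Lhx2 was called lower in GS cells with FGF5 than in WT cells, at -4.00 (SE 0.42, limma, adjusted p = 0.00019). The median of the 10 in culture was 0.08. Among the 6 genes for LIM partners, which include the cofactors Ldb1 and Ldb2, 0 were 2-fold changed in culture and the median was 0.04.

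Of 14 POU genes other than Pou3f1, 10 were tested in culture, 0 were 2-fold changed in either direction and the median was -0.25. Pou3f2, of the same class as Pou3f1, differed by -0.65 (SE 0.53), and Pou5f1, the pluripotency factor OCT4, by -0.46 (SE 0.20). Pou3f3 and Pou3f4, also of that class, were not tested in culture. Of the 8 BCL6 relatives and partners, 0 were 2-fold changed in culture, the median was -0.08, and Bcl6 differed by -0.50 (SE 0.31), opposite in sign to Bcl6b. Bcl6 was called higher in culture than in WT cells in both comparisons, at 1.02 (SE 0.24) with FGF5 and 1.52 (SE 0.24) without.

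Of 17 genes of the primitive streak, the embryonic site where T and Eomes are best known, 11 were tested in culture. None of them was at least 2-fold higher or lower with FGF5, and the median was 0.04. Mixl1, Evx1, Msgn1, Fgf4 and Wnt3a were well above background on at most 1 of the 10 arrays. In Fgf5-/- cells 12 were tested and 0 passed. Of 10 pluripotency genes all 10 were tested in culture, 1 was at least 2-fold higher with FGF5, Sox2 at 1.16 (SE 0.51), and the median was 0.01.

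**Figure D4:**
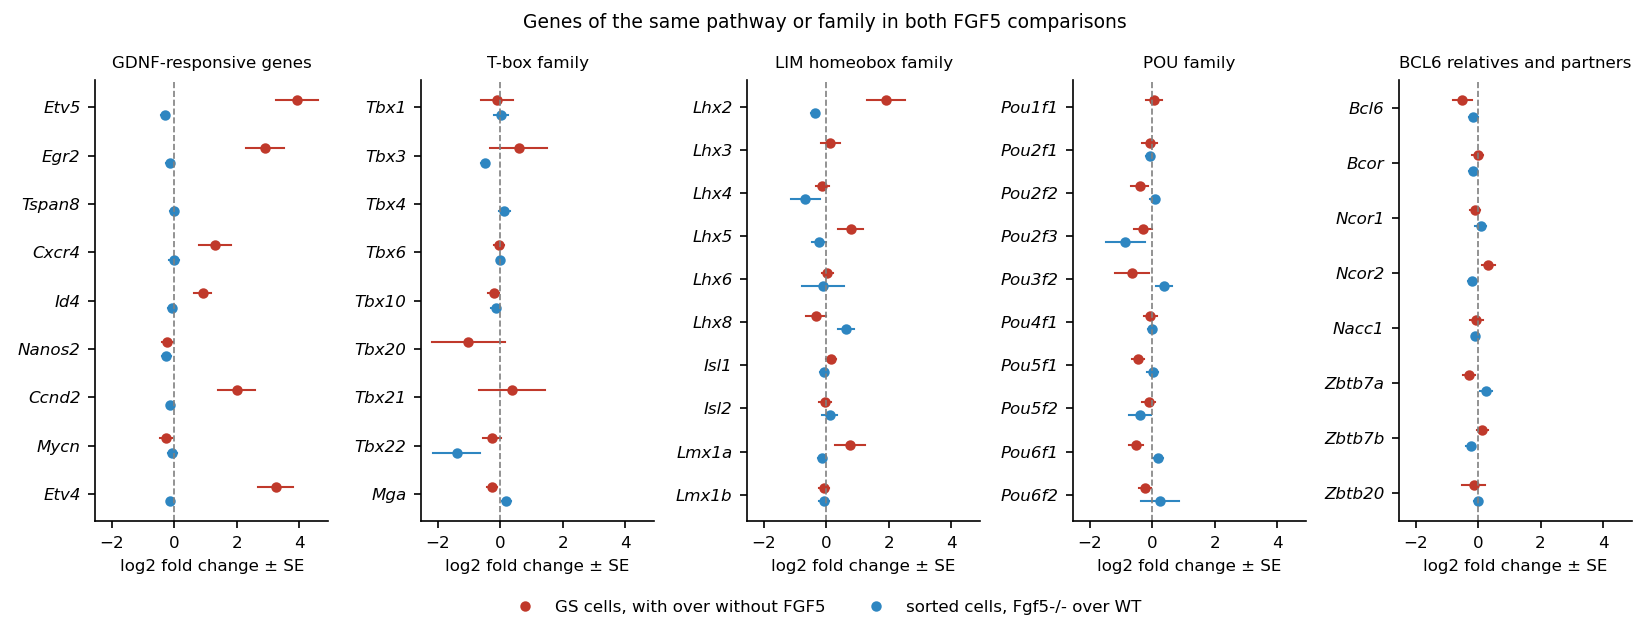
Log2 fold change with its standard error for the tested genes of 5 lists, in GS cells with over without FGF5 (red) and in sorted Fgf5-/- over WT cells (blue). Etv5, Egr2, Ccnd2, Etv4 and Cxcr4 lie more than 1 log2 unit above 0 in culture, Lhx2 is the only such gene of the LIM homeobox, POU and BCL6 lists, and in sorted cells most values lie within 0.5 of 0.

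The genes with the most similar pattern to each member were found over all 10 arrays among 15522 gene names, by the root mean square difference between log2 levels centred on each probe's mean. For Bcl6b the nearest were Phlda1 (0.194), Upf3b (0.233) and Cdc42ep3 (0.254), where the median distance of all genes was 1.04. For Lhx1 they were Zic1 (0.314), Etv4 (0.339) and Tmem255a (0.350), and the median was 1.80. Etv4 is thus a member of the list of GDNF-induced genes and among the 3 genes nearest to Lhx1 by pattern.

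For T the nearest were Foxc2 (0.550), Mrc1 (0.588) and Kcnc2 (0.618), with a median of 2.5 over all genes. For Eomes they were Tcf7l1 (0.313), Ccnd1 (0.358) and Col14a1 (0.377), with a median of 2.47. The mean level of these 3 in culture minus that in WT cells was between -4.96 and -4.59 on the log2 scale. For Pou3f1 they were Vmn1r173 (0.082), Mrps14 (0.089) and Gdf1 (0.093), with a median of 0.609, so many genes lie close to a pattern that varies this little.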

How the data were processed

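Total RNA was amplified from 25 ng, labelled with Cy3 and hybridized to Agilent whole mouse genome arrays, 1 sample per array. The authors deposited the scanner output of Feature Extraction (version 10.7.3.1 in the submitters' processing notes, 10.7.1.1 per the file headers), whose signal intensity is background-subtracted on a linear scale, and a table of log2 values made in GeneSpring with signals floored at 1 and shifted to the 75th percentile. Those log2 values differed from the recomputed ones by 1 constant per array.

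Here, log2 of the processed signal (floor 1) minus the array's 75th percentile over non-control spots was used, without spots marked as uneven or as outliers. Probes entered a test if every array of one or more of the compared groups marked them well above background. limma 3.58.1 in R 4.3.3 (lmFit, eBayes, two-sided) was fitted to the 4 culture arrays, to the 6 sorted arrays and, for culture against WT, to all 10 arrays, with Benjamini-Hochberg adjustment across the tested probes, and calls were made at 0.05. The fits were checked on simulated data with known changes. An "at least" fold set the bright group's mean against, per dim array, the lowest signal among probes well above background or the probe's own signal if higher. Such a fold holds only for the background subtraction used here. List genes were read from their brightest probe. The number of arrays limits the precision, and dim probes depend most on the background.

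The text names every probe of the 5 genes, the 3 nearest genes by pattern to each, and genes of the lists. The 5 genes and all lists were chosen with earlier results of these data known, the promoter motifs after the sequences were seen. Alternatives were another normalization, background correction, floor, filter, percentile, the authors' table, other fits and leaving out each array.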

Additional observations from a re-analysis of the deposited data

How the results depend on the processing

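The number of member probes past the adjusted threshold stayed at 0 in both FGF5 comparisons under every alternative and with every array left out (0 to 0). Against WT cells, the main fit called 4 of the 6 member probes detected on every array of both groups with FGF5, and 4 of 4 without. Of all probes tested, including those that entered through 1 group only, 52.1% and 55.4% were called. A further 1 probe with FGF5 and 3 without entered only through the WT group and are no support. When only probes well above background on all 10 arrays were tested, 2 member probes passed with FGF5 and 4 without, since only 4 remained. Of the values of single probes under other settings, 285 kept their direction and their side of the threshold, 2 lost a call and 2 gained one. With an array left out, 197 kept both, 3 lost a call, 3 gained one and 3 turned sign. The brighter Lhx1 probe in GS cells with FGF5 against WT cells lost its call without the filter on dim probes (limma, adjusted p = 0.056) and in a fit of those 5 arrays alone (limma, adjusted p = 0.071). The dimmer one gained it under quantile normalization, at -1.18 (limma, adjusted p = 0.037), and under the normexp background correction, at -0.75 (limma, adjusted p = 0.048). The cause was not tested. As each array was left out, the turned signs were those of Pou3f1 in culture (from -0.12 without replicate 2 of the cells without FGF5 to 0.38), T in sorted cells (from -0.46 to 0.0014 without Fgf5-/- replicate 3) and Bcl6b with FGF5 against WT cells (from -0.43 without replicate 2 with FGF5 to 0.87). The normexp correction, which lifts dim probes, brought the culture difference of T to 1.07 and of the brighter Lhx1 probe to 1.91.

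The labels number the samples but do not state that equal numbers share a culture or litter. The deviations of equally numbered samples correlated at 0.64 in culture, where 2 samples a group make this a single value, and at -0.42, -0.16 and -0.15 in sorted cells. With the replicate number as a block, the culture log2 fold changes kept their values with smaller standard errors (T 3.26, SE 0.15; brighter Lhx1 probe 3.12, SE 0.26), 0 probes of the array passed and the smallest adjusted p was 0.15 (limma). The block made 0 calls in sorted cells, 18053 against 18095 with FGF5 and 19358 against 19407 without FGF5.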
